A study of Mus musculus with 10 samples.

Results

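The genes described here are 9 transcription factor genes of retinal bipolar cells: Vsx1, Bhlhe22, Bhlhe23, Isl1, Irx5, Irx6, Lhx4, Prdm8 and Neurod4. They were taken by gene symbol from a count table of 19999 genes, and each was found once. Retinal RNA of BALB/c mice, an albino laboratory strain, was sequenced from a model of light-induced damage (5 libraries) and from controls (5 libraries). All 10 library names include "vehicle", without saying what it was or how it was given, and the compound A74 named in the design text was not analysed here. The labels give no genetic alteration, light dose, time after exposure, age or sex, and do not tie libraries to single animals, so a p-value here reflects only how these libraries vary, which may in part be technical. The comparison asks how the level of each factor differed between light-damaged and control retina.

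Bipolar cells are the interneurons that carry signals from photoreceptors to amacrine and ganglion cells. Rod bipolar cells and ON cone bipolar cells depolarise when light increases, and OFF cone bipolar cells when it decreases. These identities are set late in retinal development by homeodomain and basic helix-loop-helix (bHLH) transcription factors, many of which the mature cells go on expressing.

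Total counts lay between 17900227 and 20337329 in light damage libraries and between 14652535 and 20699236 in control libraries. Light damage replicates 1 and 2 stood apart from the other libraries. They had 17174 and 20414 counts of Xist, the noncoding RNA of the inactive X chromosome, while the other 8 libraries had between 1 and 9. Xist is made in female cells, and every control was among those 8, so sex was not balanced between the groups. The fits that keep these replicates had no term for sex, so they do not tell an effect of sex apart from one of light damage. The 9 tested lens genes summed to between 21.4 and 7520 CPM (counts scaled to library size) in light damage and to between 3.28 and 31.4 CPM in control. Light damage replicates 1 and 2 carried much of this difference. Log2 fold changes of the 9 lens genes lay between 3.29 and 7.89 over all 10 libraries, and between 0.69 and 2.93 without these replicates. High Xist and lens RNA thus went together in these replicates, and the part of either in other differences was not tested. All 13 rod genes looked for were present, summing to between 64404 and 89912 CPM in light damage and to between 69573 and 111950 CPM in control, so the tissue carried the defining transcripts of retina.

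In light-damaged retina 7 of the 9 factors were higher and none was lower. Vsx1 and Irx5 were the most raised, by 1.38-fold each, followed by Irx6, Bhlhe23 and Neurod4, by 1.26-fold, 1.26-fold and 1.24-fold. Bhlhe22 and Isl1 were 1.17-fold and 1.14-fold higher. Lhx4 and Prdm8 did not pass the test. Calls were made by edgeR's quasi-likelihood test across 16852 genes at a Benjamini-Hochberg adjusted p under 0.05, by which 5.32% of all tested genes were higher and 7.85% lower. DESeq2 called 7 of the 9 higher (background 7.7%) and limma-voom 6 (background 4.77%). For a lower level the count was 0 by edgeR, by DESeq2 and by limma-voom, and also 0 at an unadjusted edgeR p under 0.05, which 16.3% of all genes reached on the lower side. The median log2 fold change was 0.31 over the 9 factors and 0.00 over all genes tested. In bulk retina a changed number of bipolar cells and a changed amount of RNA per cell cannot be told apart. Since CPM are relative to the whole library, a changed share of RNA from other cells cannot be told apart from these either.

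**Figure D1:**
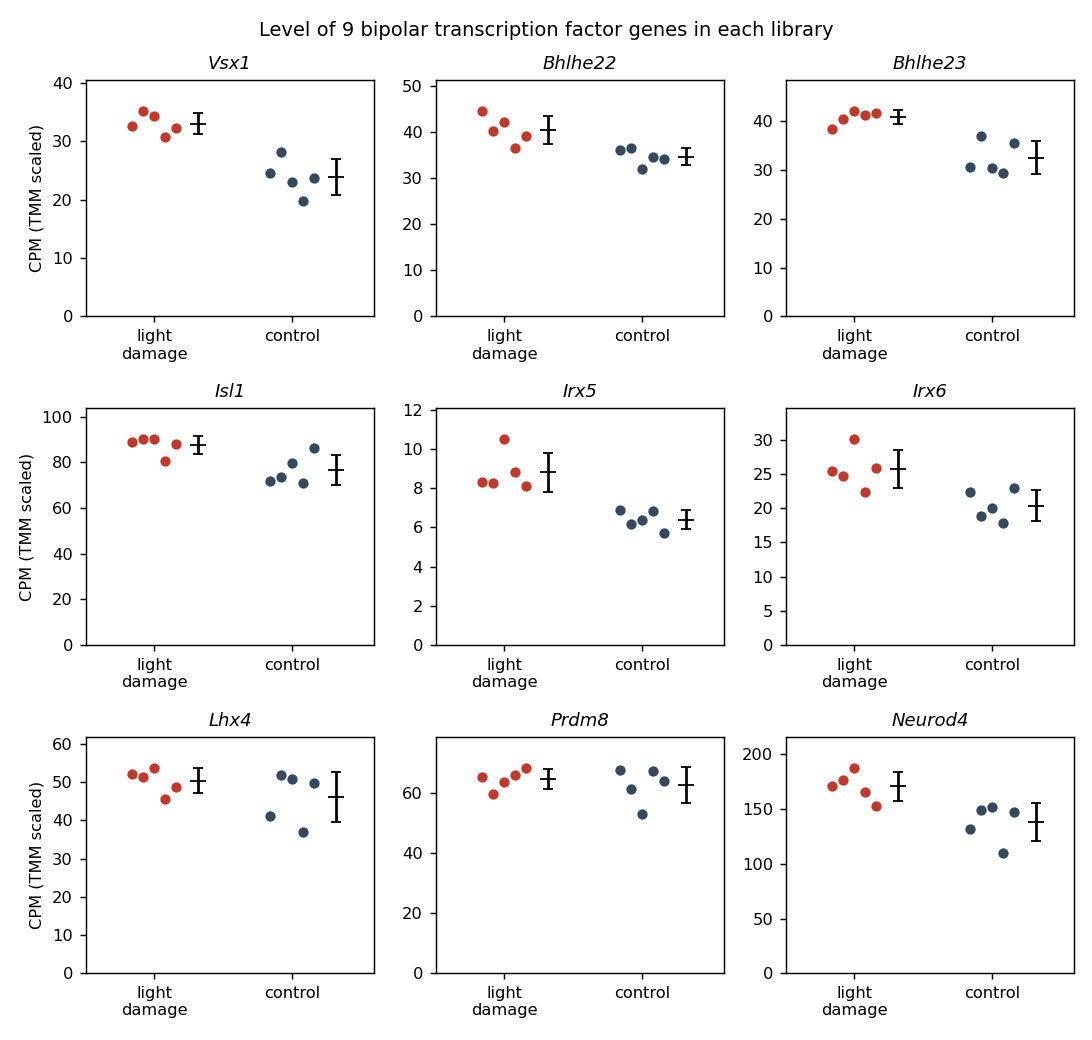
CPM of each factor (vertical axis, TMM scaled, from 0) in each of 5 light damage and 5 control libraries. Points are libraries in order of replicate number, and the bar beside them is the mean ± SD. For Vsx1, Bhlhe23, Irx5 and Neurod4 every light damage point lies above every control point, while the Prdm8 and Lhx4 groups overlap.

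Rod bipolar cells depend on Bhlhe23 and Prdm8. Bhlhe23 (ENSMUSG00000045493) encodes a bHLH factor needed for their maturation. It had 38.4, 40.3, 42.1, 41.2 and 41.6 CPM in light damage replicates 1 to 5, against 30.5, 36.8, 30.3, 29.2 and 35.4 CPM in control replicates 1 to 5. Every light damage library was above every control library, and the light damage values were close together. Light damage libraries averaged 40.7 ± 1.46 CPM, and controls 32.5 ± 3.43 CPM (SD, n = 5 each). On the log2 scale the fold change was 0.33 (SE 0.07, edgeR adjusted p = 0.00941), and the call held without any single library. Gm14343, a noncoding gene whose exons overlap those of Bhlhe23 on the same strand, had 25 to 40 counts in light damage and 27 to 56 in control, and was not called.

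Prdm8 (ENSMUSG00000035456), a PR domain zinc finger factor needed for rod bipolar cells to form, had a different pattern. Its levels were 65.3, 59.6, 63.5, 66.0 and 68.5 CPM in light damage replicates 1 to 5, against 67.6, 61.3, 53.0, 67.4 and 64.1 CPM in control replicates 1 to 5. The groups overlapped nearly completely. The log2 fold change was 0.04 (SE 0.07, edgeR adjusted p = 0.713), with an approximate 95% interval from -0.09 to 0.18, and it was -0.013 without control replicate 3, the lowest library. Reads of the overlapping antisense gene A730035I17Rik may not be told apart from those of Prdm8, since the sources do not say whether strand was kept; the antisense gene had 33 to 55 counts in light damage and 37 to 57 in control.

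Several of the 9 belong to cone bipolar cells. Vsx1 (ENSMUSG00000033080) is a homeodomain factor needed for the late differentiation of OFF cone bipolar cells. It had 32.6, 35.2, 34.3, 30.6 and 32.2 CPM in light damage replicates 1 to 5, against 24.5, 28.2, 23.1, 19.7 and 23.7 CPM in control replicates 1 to 5. The highest control library, replicate 2, was below the lowest light damage library, replicate 4. Light damage libraries averaged 33.0 ± 1.80 CPM, and controls 23.8 ± 3.03 CPM (SD, n = 5 each). This was a log2 fold change of 0.47 (SE 0.08, edgeR adjusted p = 0.00317). Vsx1 was the only factor that passed the stricter test for a change beyond 0.2 on the log2 scale (edgeR glmTreat, adjusted p = 0.0487), by which 0.178% of all genes were higher.

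Irx5 and Irx6 belong to the Iroquois homeobox family and lie in one gene cluster on chromosome 8. Irx5 (ENSMUSG00000031737), needed for some OFF cone bipolar types, had the lowest level of the 9, also per kilobase of transcript. It had 8.33, 8.27, 10.5, 8.81 and 8.13 CPM in light damage replicates 1 to 5, against 6.89, 6.17, 6.40, 6.85 and 5.69 CPM in control replicates 1 to 5. The groups did not overlap, and light damage replicate 3 stood above the rest. Its log2 fold change was 0.46 (SE 0.11, edgeR adjusted p = 0.0158), close to that of Vsx1, and the call was lost without that replicate (log2 fold change 0.39, edgeR adjusted p = 0.0515). Irx6 (ENSMUSG00000031738), which shapes the axons of an OFF cone bipolar type, had 25.5, 24.8, 30.1, 22.4 and 25.8 CPM in light damage replicates 1 to 5, against 22.3, 18.8, 20.0, 17.8 and 23.0 CPM in control replicates 1 to 5. Its groups overlapped only at light damage replicate 4 and control replicate 5. For Irx6 the log2 fold change was 0.34 (SE 0.09, edgeR adjusted p = 0.0239). That call was lost without light damage replicate 1 (edgeR adjusted p = 0.0527), light damage replicate 3 (0.0729) or control replicate 2 (0.0501). Exons of the antisense gene Gm45505 overlap those of Irx6, and Gm45505 is not in the count table. As for Prdm8, its reads may not be told apart from those of Irx6.

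Bhlhe22 (ENSMUSG00000025128), a bHLH repressor needed for an OFF cone bipolar type and for some amacrine cells, had 44.7, 40.3, 42.2, 36.6 and 39.2 CPM in light damage replicates 1 to 5, against 36.1, 36.7, 32.1, 34.6 and 34.3 CPM in control replicates 1 to 5. Only light damage replicate 4 reached the control range. This gave a log2 fold change of 0.22 (SE 0.07, edgeR adjusted p = 0.0376). Bhlhe22 lost its call in 6 of the 10 fits on 9 libraries, those without light damage replicate 1, 2 or 3 (edgeR adjusted p = 0.101, 0.0747 and 0.0894) and those without control replicate 3, 4 or 5 (0.0870, 0.0561 and 0.0758).

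Lhx4 (ENSMUSG00000026468), a LIM homeodomain factor of cone bipolar cells, was not called. It had 52.1, 51.4, 53.8, 45.6 and 48.6 CPM in light damage replicates 1 to 5, against 41.0, 51.8, 50.9, 37.0 and 49.6 CPM in control replicates 1 to 5. Control replicates 1 and 4 were lower than every light damage library, and the other 3 controls lay within the light damage range. The log2 fold change was 0.13 (SE 0.09, edgeR adjusted p = 0.342), with an approximate 95% interval from -0.04 to 0.30, and it was 0.065 without control replicate 4, the lowest library.

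Isl1 (ENSMUSG00000042258) is a LIM homeodomain factor of ON bipolar cells, and ganglion cells and starburst amacrine cells also express it. It had 88.8, 90.2, 90.1, 80.5 and 88.1 CPM in light damage replicates 1 to 5, against 71.8, 73.5, 80.0, 71.1 and 86.3 CPM in control replicates 1 to 5. Only control replicate 5 lay above the lowest light damage library. The log2 fold change was 0.19 (SE 0.06, edgeR adjusted p = 0.0479), close to the threshold. Isl1 lost its call in 8 of the 10 fits on 9 libraries, the exceptions being light damage replicate 4 and control replicate 5, with edgeR adjusted p up to 0.113 without light damage replicate 3. Of 6 starburst amacrine genes and 12 ganglion cell genes, edgeR and limma-voom called 0 in each list and DESeq2 1 in each. The share of all genes higher at an unadjusted edgeR p under 0.05 was not counted. At that level 3 of the starburst and 2 of the ganglion cell genes were higher. Their summed levels overlapped between groups, 608 to 705 CPM in light damage and 527 to 642 CPM in control for starburst genes, and 1351 to 1466 CPM in light damage and 1162 to 1614 CPM in control for ganglion cell genes. Their part in the Isl1 difference was not tested.

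Neurod4 (ENSMUSG00000048015), a proneural bHLH factor that promotes bipolar fate, had the highest level of the 9, also per kilobase of transcript. It had 171, 177, 188, 165 and 153 CPM in light damage replicates 1 to 5, against 132, 149, 152, 110 and 147 CPM in control replicates 1 to 5. The groups did not overlap, by a narrow margin between light damage replicate 5 and control replicate 3. The log2 fold change was 0.31 (SE 0.08, edgeR adjusted p = 0.0252). The call was lost without light damage replicate 1, 2 or 3 (edgeR adjusted p = 0.0563, 0.0623 and 0.0735).

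In 4 of the 9 factors every light damage library was above every control library, against 4.31% of all genes tested. The mean over the factors of log2 CPM, centred over the 10 libraries, was 0.15, 0.14, 0.24, 0.06 and 0.11 in light damage replicates 1 to 5 and -0.13, -0.07, -0.15, -0.26 and -0.08 in control replicates 1 to 5. Light damage replicate 3 was thus highest and control replicate 4 lowest. The high-Xist replicates 1 and 2 lay in the middle of the light damage values.

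The number of calls depended on single libraries. Without light damage replicates 1 and 2 together, only Vsx1 and Bhlhe23 remained called (edgeR adjusted p = 0.0409 and 0.0477), 2 of 9 against a background of 0.782%. The fold changes themselves moved little: the median over the 9 factors was 0.29, that over all genes 0.00, and 7 factors were higher at an unadjusted p under 0.05, as were 8.99% of all genes. Leaving out light damage replicate 1, 2 or 3 alone left 3, 4 and 2 factors called, with backgrounds of 2.58%, 2.83% and 2.34%. Vsx1 kept its call in each of the 21 alternative fits, and Bhlhe23 in all but the glmTreat test (edgeR adjusted p = 0.223).

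**Figure D2:**
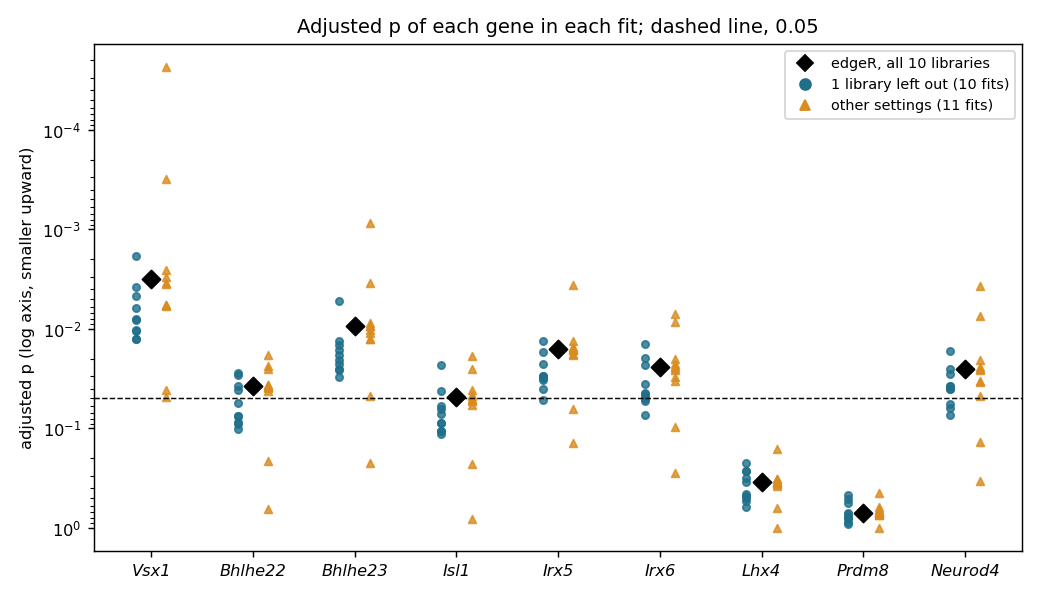
Adjusted p (log axis, smaller values upward, dashed line at 0.05) of each factor in the edgeR fit of all 10 libraries (diamonds), in 10 fits with 1 library left out (circles) and in 11 fits with other settings (triangles). All Vsx1 points lie above the line, Isl1 and Bhlhe22 points fall on both sides, and all Lhx4 and Prdm8 points lie below it.

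The data gave RNA levels only, so the DNA upstream of the factors is shown for orientation. RefSeq promoter entries (build GRCm38.p6, not the GRCm39 named for the counts) matched 6 of the 9 factors: Vsx1, Bhlhe23, Isl1, Lhx4, Prdm8 and Neurod4. The 250 bases before the start were searched on both strands for CANNTG, the E-box bound by bHLH factors, for TAATCC, a motif of Otx2 and Crx, and for TAATTA, a motif of homeodomain factors. Of 32841 promoter entries 66.2% held CANNTG, 6.25% TAATCC and 4.84% TAATTA. The 3 called factors whose window held a match are printed on the minus strand, 5′ to 3′, with matches in capitals: Vsx1 at chr2:150689138-150689387, Bhlhe23 at chr2:180776901-180777150 and Isl1 at chr13:116309689-116309938.
Vsx1: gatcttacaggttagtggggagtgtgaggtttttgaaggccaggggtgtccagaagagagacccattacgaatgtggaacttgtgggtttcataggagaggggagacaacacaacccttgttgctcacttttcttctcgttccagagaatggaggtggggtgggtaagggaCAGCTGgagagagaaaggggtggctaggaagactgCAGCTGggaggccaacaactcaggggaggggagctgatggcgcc
Bhlhe23: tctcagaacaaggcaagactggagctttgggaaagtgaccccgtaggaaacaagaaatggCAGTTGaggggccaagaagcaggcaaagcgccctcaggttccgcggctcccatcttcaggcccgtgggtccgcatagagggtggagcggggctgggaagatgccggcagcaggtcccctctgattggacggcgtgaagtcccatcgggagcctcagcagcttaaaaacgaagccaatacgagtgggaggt
Isl1: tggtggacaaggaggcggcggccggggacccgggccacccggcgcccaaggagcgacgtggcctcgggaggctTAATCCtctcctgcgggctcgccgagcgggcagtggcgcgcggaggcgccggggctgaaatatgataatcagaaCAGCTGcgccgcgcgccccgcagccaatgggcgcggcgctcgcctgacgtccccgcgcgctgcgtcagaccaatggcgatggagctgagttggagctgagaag
Vsx1 had 2 E-boxes, both CAGCTG, Bhlhe23 had 1 and Isl1 had 1, with 1 TAATCC match in Isl1 as well. The uncalled Prdm8 had 2 E-boxes, and Lhx4 and both entries of the called Neurod4 had no match to any of the 3 motifs. TAATTA was found in none of these windows. E-boxes thus stood in called and uncalled factors alike.

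Per kilobase of the longest annotated transcript (GENCODE M21), Neurod4 was the most abundant factor, at 51.0 ± 3.95 CPM per kb in light damage and 41.3 ± 5.24 in control (SD, n = 5 each). Isl1 followed at 34.8 and 30.4 CPM per kb in light damage and control. Bhlhe23 had 16.2 and 12.9 CPM per kb, Prdm8 14.2 and 13.8, and Bhlhe22 12.1 and 10.4, in the same order of groups. Below them stood Lhx4 at 9.12 and 8.36, Vsx1 at 8.70 and 6.29, Irx6 at 7.63 and 6.05, and Irx5 at 3.45 and 2.51 CPM per kb in light damage and control. Over all 10 libraries only the steps from Isl1 down to Bhlhe23 and from Irx6 down to Irx5 had ranges that did not overlap. The other neighbours in this order overlapped.

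The factors were next set against a panel of 12 other bipolar genes, as log2 CPM of the factor minus the mean log2 CPM of the panel in the same library, a measure in which library scaling cancels apart from the prior count. Relative to the panel, Vsx1 lay between -2.28 and -2.14 in light damage and between -2.62 and -2.31 in control, a mean difference of 0.28 with no overlap. Irx5 differed by 0.26, Irx6 by 0.15, Bhlhe23 by 0.14 and Neurod4 by 0.12, with overlap between the groups. Bhlhe22 and Isl1 differed by 0.033 and 0.0078, so their levels per panel level were nearly the same in both groups. Lhx4 differed by -0.05 and Prdm8 by -0.14, with overlap. These values are a description and were not tested.

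**Figure D3:**
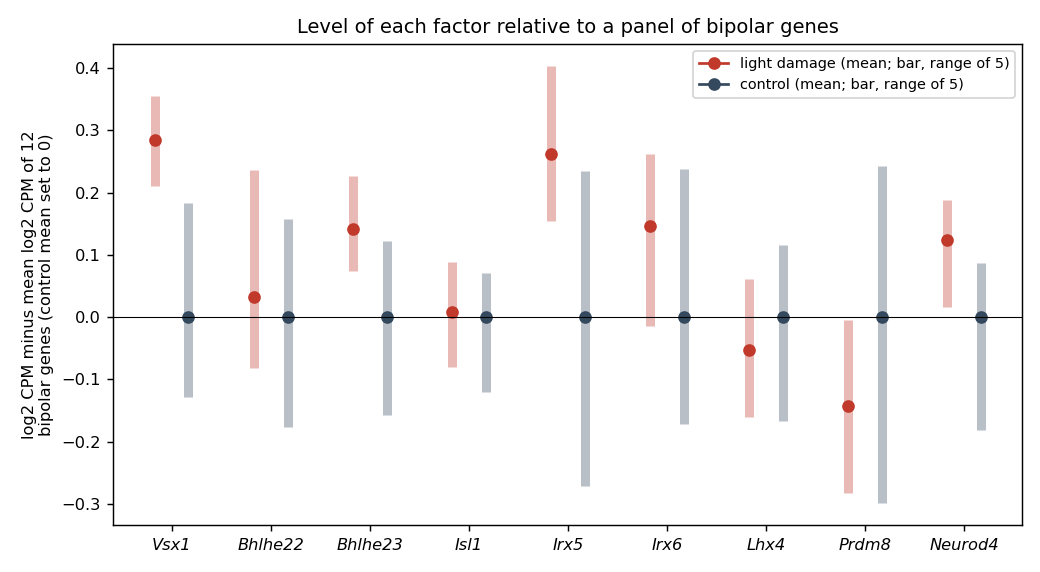
Log2 CPM of each factor minus the mean log2 CPM of 12 bipolar genes, with the control mean of each factor set to 0. Points are means of 5 libraries and bars their range. Only the Vsx1 bars do not overlap, Bhlhe22 and Isl1 means are nearly level, and the Prdm8 mean is lower in light damage.

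Log2 ratios within a library were compared for 3 related pairs, chosen after the values were seen. Bhlhe22 over Prdm8, whose products act together in the mouse brain, was -0.67 ± 0.14 in light damage and -0.85 ± 0.11 in control (SD, n = 5 each), a difference of 0.18 (exact two-sided permutation p = 0.0794, adjusted over the 3 pairs 0.238). With 1 library left out, the unadjusted exact permutation p ranged from 0.0476 (without light damage replicate 4 or 5) to 0.151 (without light damage replicate 1). The difference was 0.10 without light damage replicates 1 and 2 (exact permutation p = 0.304). Irx5 over Irx6 differed by 0.12 (exact permutation p = 0.349). This was 0.067 without light damage replicate 4, 0.031 without control replicate 5 and 0.19 without control replicate 4 (exact permutation p = 0.0794). The paralogs Bhlhe23 over Bhlhe22 differed by 0.11 (exact permutation p = 0.246), by 0.069 without light damage replicate 4, by 0.17 without light damage replicate 1 and by 0.19 without light damage replicates 1 and 2. None of the 3 ratios passed, so a larger change of one partner was not shown. Because the pairs were picked with the values known, these p-values are descriptive, and adjusting over 3 pairs does not correct for that choice. With 5 libraries per group the smallest p this test can give is 0.00794.

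A list of 23 other transcription factors was tested as well. The list is mixed, since some of its factors also belong to other retinal cells or to early eye development. Of the 23, 2 were higher and 1 was lower, near the shares over all genes (5.32% and 7.85%), and the median log2 fold change was 0.02. Prdm1, a zinc finger repressor that in developing mouse retina holds back bipolar fate in photoreceptor precursors, was the 1 that fell. It had 14.6, 12.4, 12.3, 13.6 and 14.4 CPM in light damage replicates 1 to 5, against 15.6, 19.9, 16.7, 18.8 and 16.6 CPM in control replicates 1 to 5. No light damage library reached the lowest control, and the log2 fold change was -0.38 (SE 0.09, edgeR adjusted p = 0.0140). The call held without any single library, and the edgeR adjusted p was 0.0825 without light damage replicates 1 and 2. Sebox, a homeobox gene of rod bipolar cells, rose by 0.24 on the log2 scale but was not called without light damage replicate 1 (edgeR adjusted p = 0.0537). Six6, a homeobox gene of the early eye, rose by 0.24 as well but was not called in 8 of the 10 fits on 9 libraries (edgeR adjusted p up to 0.110 without light damage replicate 1). Otx2, shared by bipolar cells and photoreceptors, averaged 211 CPM in both groups, and was not called (log2 fold change -0.0039, SE 0.05).

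**Figure D4:**
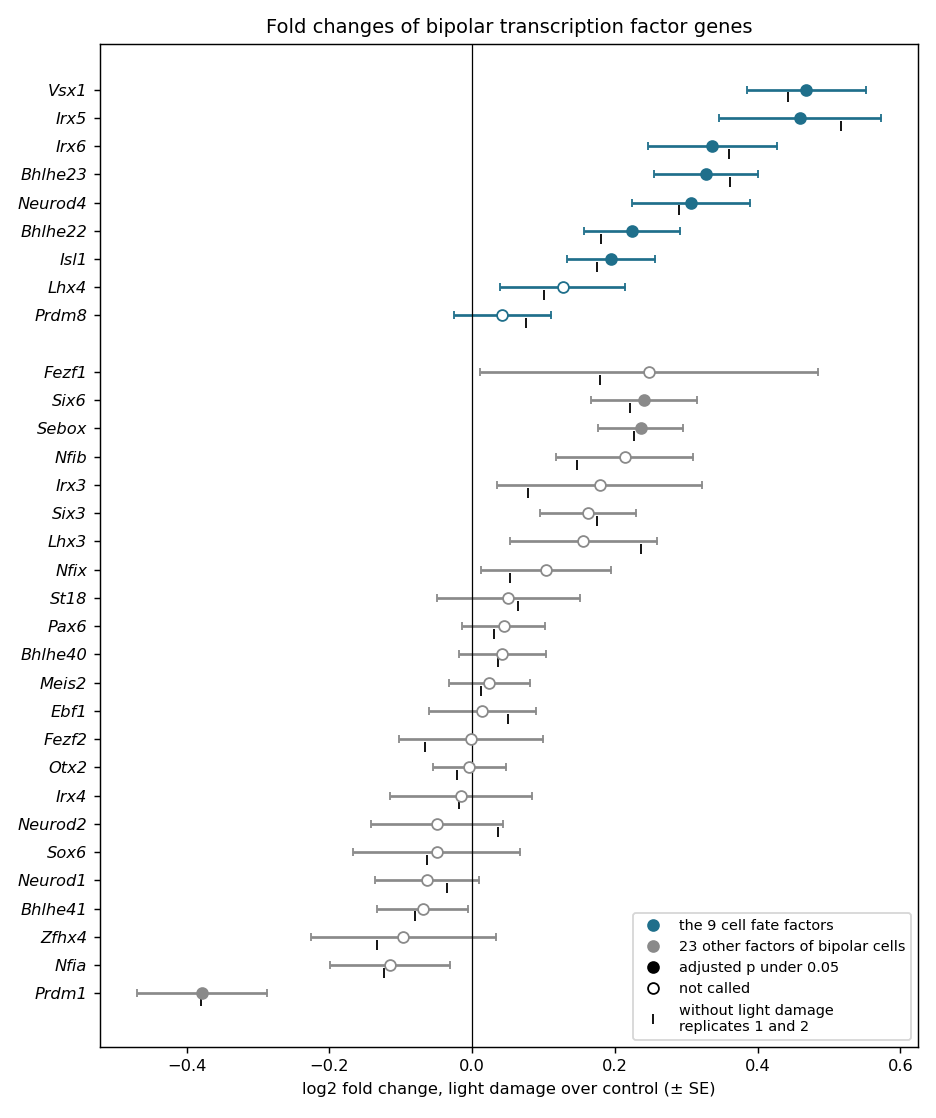
Log2 fold change of light damage over control (± SE) for the 9 factors and for a mixed list of 23 other factors, not all particular to bipolar cells. Filled points had an edgeR adjusted p under 0.05, and ticks mark the value without light damage replicates 1 and 2. All 9 factors lie right of 0 with 7 filled, while the others lie on both sides with Prdm1 farthest left.

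Marker genes of bipolar cells and their types were also higher in part. The lists share genes, so their counts are not separate: Car8 stands in the panel and the rod bipolar list, Scgn in the panel and the ON cone list, Otx2 in the panel and among the other transcription factors, and Sebox among those factors and in the rod bipolar list. Over all genes 5.32% were called higher and 7.85% lower. Of the 12 panel genes 4 rose and none fell, with a median log2 fold change of 0.19. The 4 were Gng13, a G protein subunit of ON bipolar cells (0.38), the calcium binding proteins Scgn (0.29) and Cabp5 (0.26), and Car8 (0.27), a carbonic anhydrase related protein. Of 10 rod bipolar genes 4 rose, among them Vstm2b (0.28), while Prkca, the kinase that marks rod bipolar cells, was at 0.00093 (SE 0.08) and did not pass. Of 11 ON cone bipolar genes 4 rose, among them the neuropeptide gene Cck (0.43) and Nxph1, a neurexin ligand (0.44). Of 13 tested OFF cone bipolar genes 3 rose, Gsg1 (0.40), the tachykinin receptor Tacr3 (0.32) and Neto1 (0.31), an auxiliary subunit of kainate receptors. On 9 libraries Car8 was not called in 8 of the 10 fits, Tacr3 in 6 and Neto1 in 5. Their edgeR adjusted p reached 0.0870 for Car8 and 0.0966 for Neto1 without light damage replicate 3, and 0.0994 for Tacr3 without light damage replicate 2. Car8 also lost its call with library totals alone and without robust estimation. Lower calls among the panel, rod, ON cone and OFF cone bipolar genes numbered 0 by edgeR and by limma-voom. The 1 with an unadjusted p under 0.05 and a lower level, Col11a1 of the OFF cone list (-0.43), was the only one that DESeq2 called lower. Without light damage replicates 1 and 2, 1 panel gene, 0 rod bipolar, 2 ON cone and 1 OFF cone bipolar gene were called higher. The share over all genes in that fit was 0.782%.

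Counts for other cell types stand beside background shares of 5.32% higher and 7.85% lower over all genes. Müller glia had 5 of 13 genes higher, with a summed level of 5634 to 7948 CPM in light damage and 4382 to 5686 CPM in control. Horizontal cells had 2 of 8 higher and amacrine cells 2 of 13. Of 13 rod genes 1 was higher and 1 lower, and of 11 cone genes 1 was lower, counts near the background. Their median log2 fold changes were -0.14 and -0.08. In each of these 2 lists 3 genes were lower at an unadjusted edgeR p under 0.05, as were 16.3% of all genes. The medians were 0.34 for Müller glia, 0.21 for horizontal, 0.09 for amacrine, 0.18 for starburst amacrine and 0.12 for ganglion cell genes. Of 9 tested lens genes 3 were higher. Of 9 tested genes of pigment epithelium and ciliary body edgeR and limma-voom called 0 and DESeq2 2. At an unadjusted edgeR p under 0.05, 4 of them were higher, with no share over all genes counted for that side. DESeq2 called 9 of the lens genes and limma-voom 0. The panel of bipolar genes summed to 2305 to 2690 CPM in light damage and to 1997 to 2471 CPM in control, with overlap. The mean log2 CPM of the panel, used above, was higher in every light damage library than in every control library. The margin, between light damage replicate 1 and control replicate 5, was narrow. Summed levels did not overlap for the 9 factors (497 to 554 CPM in light damage and 394 to 469 CPM in control), for ON cone bipolar genes (327 to 368 CPM in light damage and 264 to 316 CPM in control) and for horizontal cell genes (554 to 587 CPM in light damage and 441 to 537 CPM in control). The part of these cell types in the differences of the factors was not tested.

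Across the 10 libraries the genes whose pattern was most like a factor were sought among 13479 genes of at least 1 CPM, as the smallest mean absolute difference of centred log2 CPM. Nearest to Neurod4 were Neto1 (0.035), the cadherin gene Cdh20 (0.043) and the potassium channel gene Kcnk3 (0.047). For Vsx1 they were Panx1, a channel that releases ATP (0.048), the ETS factor gene Etv5 (0.062) and Ier5 (0.068). Bhlhe23 was most like Trim32, Arhgap15 and Prdm13, a zinc finger factor gene of amacrine cells, at 0.047 to 0.050. Isl1 was nearest to Dlg3, a synaptic scaffold gene (0.027), Plod2 (0.034) and Parp8 (0.036), and Bhlhe22 to Tmem255a, Usp46 and Ntng1 (0.043 to 0.044). For Irx5 they were Anxa5 (0.045), Atic (0.061) and Itm2b (0.065), and for Irx6 Smoc1 and L3mbtl3 (0.060 each) and Pfkm (0.063). Among the 9 factors the nearest pair was Isl1 and Lhx4 at 0.082, followed by Vsx1 and Bhlhe23 at 0.094. These likenesses include the difference between the groups and are descriptions over 10 libraries.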

How the data were processed

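The authors deposited whole-number counts per gene and library. Per the submitters' processing notes the tools were Bowtie2, RSEM 1.3.1 and DESeq2 1.4.5 and the build GRCm39, with no roles stated. Whether the counts are rounded estimates, and whether strand was used, is not given there. Groups and replicate numbers came from the sample titles, and symbols from GENCODE M21 by Ensembl identifier (19892 of 19999 matched).

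The main test was run with edgeR 4.0.16 in R 4.3.3 (filterByExpr, TMM scaling, robust quasi-likelihood test, group as the single term, Benjamini-Hochberg adjustment over 16852 genes). CPM use TMM scaled totals. A prior count of 2 was added for log2 CPM. Alternatives were DESeq2 1.42.0, voom of limma 3.58.1, other scalings and filters, no robust estimation, glmTreat, a replicate block, and fits without each library or without light damage replicates 1 and 2. No 2 libraries held the same values. The steps were tested on simulated counts. The factors, the 14 other gene lists and the rules were chosen with earlier results of these data known, and some genes of the lists are not reported here and were left out of them. Named were all 9 factors, genes of the lists with the lowest p (up to 4 each), the 3 genes most like each called factor, and, after their values were seen, Otx2 and Prkca. The pair ratios, and a panel without Otx2, were added after seeing the data.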

Additional observations from a re-analysis of the deposited data

Results flagged for a closer look

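Of 42 sets of 5 values examined for a library far from the rest of its group (each factor's CPM, its level relative to the panel and the 3 pair ratios, in each group), 2 held one, and chance alone gives about 1 in 20. Isl1 was lowest in light damage replicate 4, at 80.5 CPM, with the nearest light damage library at 88.1 CPM. Irx5 was highest in light damage replicate 3, at 10.5 CPM, with the nearest light damage library at 8.81 CPM.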

How the results depend on the processing

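Over all genes, 896 were higher and 1323 lower. Leaving out 1 library at a time gave between 399 and 1347 higher, between 723 and 1644 lower, and between 2 and 7 factors higher. Without both light damage replicates 1 and 2 they fell to 135, 268 and 2 factors. That fit also held fewer libraries, and the part of this in the fall was not tested. The test for changes beyond 0.2 on the log2 scale left 30 higher, 155 lower and 1 factor, Vsx1, as a stricter threshold must. Of the calls, 40.4% were rises, and 55.7% with library totals alone, which moved the median of all genes to 0.03 on the log2 scale. Isl1 also lost its call with limma-voom, with library totals alone, without robust estimation and with a filter of 1 CPM in 5 libraries. Among the factors a fold change reversed once, for Prdm8 without control replicate 3 (-0.013; up to 0.076 without other single libraries); the cause was not tested. The labels do not say that equal replicate numbers pair libraries. Deviations of same-numbered libraries correlated at 0.052 to 0.316 across genes, and 2 of 5 light damage libraries were most like the control of their own number. With the replicate block 1431 genes were higher, among them 7 of the factors. Differences relative to the panel moved by less than the spread between libraries in every fit run. Depth limits Irx5 most, with 83 to 222 counts per library.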
